A study of Mus musculus with 6 samples.

Results

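SAGA is a large nuclear complex that adds acetyl groups to histones and removes ubiquitin from them at transcribed genes. The 10 genes described here encode Usp22, the ubiquitin protease of the complex, and 9 of its other subunits, Atxn7, Atxn7l3, Eny2, Kat2a, Kat2b, Taf5l, Supt7l, Tada3 and Trrap. They were chosen by gene symbol. All 10 genes were measured, with 25 of the 45037 probe sets that are not controls (a probe set is a group of short probes for 1 transcript). Each gene is reported by its brightest probe set, that of the highest mean on the 6 arrays, and its other probe sets follow in their own right.

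Hippocampal RNA of 6 mice was hybridized to Affymetrix arrays, 1 array per mouse. The duplication group, 3 mice of genotype Dp(11)17/+, carries a second copy of a segment of chromosome 11 on 1 of its 2 homologues, so that the segment is present in 3 copies. The control group, 3 mice of genotype +/+, has 2 copies. Both groups are labelled as C57BL/6-Tyr c-Brd males of 11 to 14 weeks. The title of the series presents the line as a mouse model for Potocki-Lupski syndrome, which in humans affects development and comes from an extra copy of the corresponding segment. Cells of all hippocampal types were measured together, so a change in the number of cells of a type and a change of RNA per cell cannot be told apart.

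Usp22 lies inside the duplicated segment, which was taken as the genes from Cops3 to Rnf112 in the gene order of GRCm38.p6, with 11 genes between it and Rnf112. Kat2a and Atxn7l3 are on chromosome 11 as well, far outside the segment, with 1293 and 1382 genes between them and Usp22. The other 7 subunits are encoded on other chromosomes, Supt7l and Trrap on 5, Tada3 on 6, Taf5l on 8, Atxn7 on 14, Eny2 on 15 and Kat2b on 17. The comparison of the genotypes therefore sets 1 subunit with an extra gene copy beside 9 subunits with the usual 2 copies.

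As background, SAGA works in modules. Usp22 is active as a protease when it is bound to Atxn7, Atxn7l3 and Eny2, and this deubiquitinating module removes ubiquitin from histone H2B. Kat2a or Kat2b is the acetyltransferase, which acts mainly on histone H3, and Tada3 belongs to the module that holds it. Taf5l and Supt7l are structural subunits of the core, and Trrap is a very large protein that contacts transcription activators. Expansion of a glutamine repeat in the human protein ATXN7 causes spinocerebellar ataxia with retinal degeneration.

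Several mice stood apart in ways that bear on every value below. Duplication replicate 1 is labelled male but had a log2 value of 9.13 for Xist, the RNA of the inactive X chromosome, against 3.06 to 3.69 in the other 5 mice, and its Y-linked Eif2s3y was at 2.48 against 5.41 to 6.01. Of the genes named below, Usp27x, Ube2a, Cetn2, Taf9b and Gria3 are on chromosome X. By brightest probe set, this mouse was the highest of its group for Usp27x, Cetn2, Taf9b and Gria3 and the lowest for Ube2a. The part of its sex-linked pattern in these values was not tested. Mean log2 levels over 11 markers of hippocampal neurons were 7.22 to 7.44 in wild-type mice and 5.24 to 7.98 in duplication mice, 0 of 11 higher in the duplication group, with 8 of the 11 at a mean of 6 or more. Duplication replicates 1 and 3 lay at -0.96 and -2.08 from the wild-type mean of these markers, and duplication replicate 2 at 0.66. All 12 measured striatal markers had higher means in duplication mice, with levels of 5.13 to 5.78 in wild-type and 5.18 to 7.44 in duplication mice, and duplication replicates 1, 2 and 3 lay at 1.21, -0.21 and 2.05. Of 12 markers of thalamus and habenula 10 were higher, with levels of 4.45 to 4.73 and 4.39 to 6.89, and duplication replicate 3 lay at 2.28. Wild-type replicate 1 had the highest choroid plexus markers, 2.12 above the wild-type mean, and 7 of 9 of these were higher in the duplication group, at 4.40 to 6.52 against 4.20 to 7.39. Markers of oligodendrocytes were higher in 8 of 9, of astrocytes in 7 of 8, of microglia in 8 of 8 and of endothelium in 6 of 7. The mean over each of these 4 lists differed from its wild-type mean by at most 0.55 in any duplication mouse, and single markers differed by more. The mean level of the endothelial markers did not overlap between the groups, at 5.63 to 5.85 in duplication and 5.53 to 5.55 in wild-type mice. The part of these differences in the SAGA values was not tested, so each gene named below is also given with duplication replicate 2 alone in its group, which leaves out duplication replicates 1 and 3 and allows no test.

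The duplicated gene, Usp22, was higher in the duplication mice. Its log2 values were 10.38, 10.27 and 10.15 in duplication replicates 1, 2 and 3, and 9.71, 9.94 and 10.04 in wild-type replicates 1, 2 and 3. All 3 duplication values were above all 3 wild-type values, by 0.11 between the lowest of the former and the highest of the latter. The wild-type mice themselves spanned 0.33, with wild-type replicate 1 lowest. The group means were 10.27 ± 0.12 and 9.90 ± 0.17 (SD, n = 3), a log2 fold change of 0.37 (SE 0.11), or 1.29-fold with a 95% confidence interval of 1.07 to 1.55. The log2 value of a copy ratio of 3 to 2 is 0.58, which lies inside the interval of 0.10 to 0.64 on the log2 scale, and 0 lies outside it.

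Over the whole table this difference did not pass. With limma and Benjamini-Hochberg adjustment over 45037 probe sets, Usp22 had an adjusted p of 0.994 and an unadjusted p of 0.0135. Limma called 0 of the 45037 probe sets (0.0%), and 1272 of them (2.82%) had an unadjusted p under 0.05, 1.44% being higher and 1.39% lower in the duplication mice. By genes, 1 of the 10 members had an unadjusted p under 0.05, Usp22, where 576 of 18193 genes did (3.17%). For Usp22, exact permutation of the genotype over all 20 labelings, two-sided, gave p = 0.1, which is the lowest value possible with 3 mice in each group. Of the 7104 genes whose mean log2 value was at least 6, 2.25% had a larger log2 fold change.

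A second, dimmer probe set of Usp22 gave a log2 fold change of 0.45 (SE 0.18, unadjusted p = 0.0415, adjusted p = 0.994 by limma). Its log2 values were 6.47, 6.51 and 6.12 in duplication replicates 1, 2 and 3, and 5.56, 6.00 and 6.19 in wild-type replicates 1, 2 and 3. Here the groups overlapped, since duplication replicate 3 lay just below wild-type replicate 3. Both probe sets had duplication replicate 3 lowest among the duplication mice and gave the same order of the wild-type mice, with replicate 1 lowest and replicate 3 highest.

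The difference of Usp22 kept its sign without each of the mice that stood apart, at 0.28 to 0.43. The lowest of these was without wild-type replicate 1, the mouse with the highest choroid plexus markers. With duplication replicate 2 alone against the wild-type mice, the log2 fold change of Usp22 was 0.37, given without a test because that mouse carries no spread of its own. It was 0.31 without duplication replicate 1 (unadjusted p = 0.0515) and 0.43 without duplication replicate 3 (unadjusted p = 0.0138). The lowest value with 1 mouse left out was 0.28, without wild-type replicate 1 (unadjusted p = 0.0423), and the highest 0.44, without wild-type replicate 3.

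**Figure D1:**
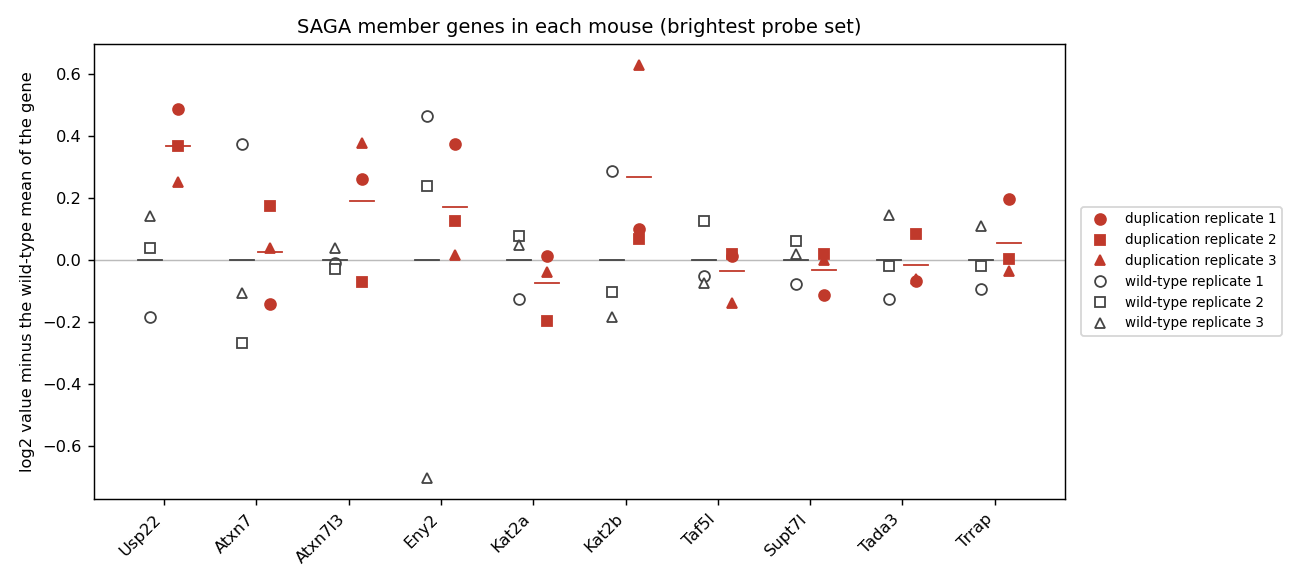
Log2 value of each SAGA member gene in each mouse minus the wild-type mean of that gene, for the brightest probe set. Filled red symbols are duplication mice, open symbols wild-type mice, the symbol shape gives the replicate and the short lines are group means. Usp22 is the 1 gene in which all duplication mice lie above all wild-type mice.

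The partners of Usp22 in the deubiquitinating module were compared next, to ask whether they differ where the protease has an extra gene copy. None of them was separated between the genotypes. Atxn7l3, the adaptor that the protease needs for activity, had log2 values of 9.01, 8.67 and 9.12 in duplication replicates 1, 2 and 3, and 8.73, 8.72 and 8.78 in wild-type replicates 1, 2 and 3. Duplication replicates 1 and 3 were above every wild-type mouse and duplication replicate 2 was below them all. Its log2 fold change was 0.19 (SE 0.12, unadjusted p = 0.171), and it was -0.07 with duplication replicate 2 alone in its group. It was 0.32 without duplication replicate 2 (unadjusted p = 0.0114, adjusted p = 0.664 by limma), with the 2 mice whose striatal markers were high, and the part of these in the value was not tested.

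Atxn7, which anchors the module to the rest of SAGA, had log2 values of 5.98, 6.30 and 6.16 in duplication mice 1 to 3 and of 6.50, 5.85 and 6.01 in wild-type mice 1 to 3. The highest value was that of wild-type replicate 1 and the lowest that of wild-type replicate 2, with all duplication mice between them. The log2 fold change was 0.02 (SE 0.18), and 0.18 with duplication replicate 2 alone. Its 2 dimmer probe sets gave -0.09 and 0.01.

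Eny2, a small protein that is shared with the mRNA export complex TREX-2, had 6 probe sets that did not share 1 direction. The brightest had log2 values of 6.91, 6.67 and 6.56 in duplication mice 1 to 3 and of 7.004, 6.78 and 5.83 in wild-type mice 1 to 3. Wild-type replicate 3 was the lowest array by far, and without it the log2 fold change of 0.17 (SE 0.29) became -0.18 (unadjusted p = 0.240). It was 0.13 with duplication replicate 2 alone. The next 3 probe sets by brightness gave -0.11, -0.05 and -0.07, and the 2 dimmest gave 0.05 and 0.09. The 2 dimmest had means of 3.24 and 2.98, under the array medians of 3.74 to 3.79. On the second brightest probe set wild-type replicate 3 was not low, at 6.32 beside 6.26 and 6.38 in the other wild-type mice.

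In the acetyltransferase module, the 2 alternative enzymes had opposite signs. Kat2a had log2 values of 7.40, 7.19 and 7.35 in duplication mice 1 to 3 and of 7.26, 7.46 and 7.43 in wild-type mice 1 to 3. The groups overlapped, with a log2 fold change of -0.07 (SE 0.10). It was -0.20 with duplication replicate 2 alone and -0.01 without that mouse. Its 2 dimmer probe sets gave -0.04 and -0.28, so all 3 were below 0.

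Kat2b, the close relative that can replace Kat2a in the complex, had the largest log2 fold change among the 9 partners, 0.27 (SE 0.19, unadjusted p = 0.199). Its log2 values were 6.90, 6.87 and 7.43 in duplication mice 1 to 3 and 7.08, 6.69 and 6.61 in wild-type mice 1 to 3. Duplication replicate 3, the mouse with the highest striatal and thalamic markers, was the highest, and without it the log2 fold change was 0.08. It was 0.07 with duplication replicate 2 alone. The part of those markers in the value was not tested. The name of this probe set ends in _s_at, which marks sets that can match several transcripts, and the 2 dimmer sets gave 0.02 and 0.12.

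Tada3, an adaptor of the acetyltransferases, had log2 values of 6.34, 6.50 and 6.35 in duplication mice 1 to 3 and of 6.29, 6.39 and 6.56 in wild-type mice 1 to 3. The groups overlapped, and the log2 fold change of -0.01 (SE 0.10) turned to 0.0045 under cyclic loess scaling and to 0.09 with duplication replicate 2 alone. A dimmer probe set gave -0.11 (SE 0.08).

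The core subunits and Trrap had small differences with overlapping groups. Taf5l had log2 values of 5.56, 5.57 and 5.41 in duplication mice 1 to 3 and of 5.50, 5.68 and 5.48 in wild-type mice 1 to 3, with a log2 fold change of -0.04 (SE 0.09). Supt7l had log2 values of 5.63, 5.76 and 5.74 in duplication mice 1 to 3 and of 5.66, 5.80 and 5.76 in wild-type mice 1 to 3, with a log2 fold change of -0.03 (SE 0.08). Both turned to 0.02 with duplication replicate 2 alone. These are the 2 members with a mean log2 value under 6, and the dimmer probe sets of Supt7l gave 0.00 and -0.01. Trrap, which SAGA shares with the TIP60 acetyltransferase complex, had log2 values of 8.13, 7.94 and 7.90 in duplication mice 1 to 3 and of 7.84, 7.92 and 8.05 in wild-type mice 1 to 3. The log2 fold change of Trrap was 0.06 (SE 0.10), and 0.0049 with duplication replicate 2 alone.

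**Figure D2:**
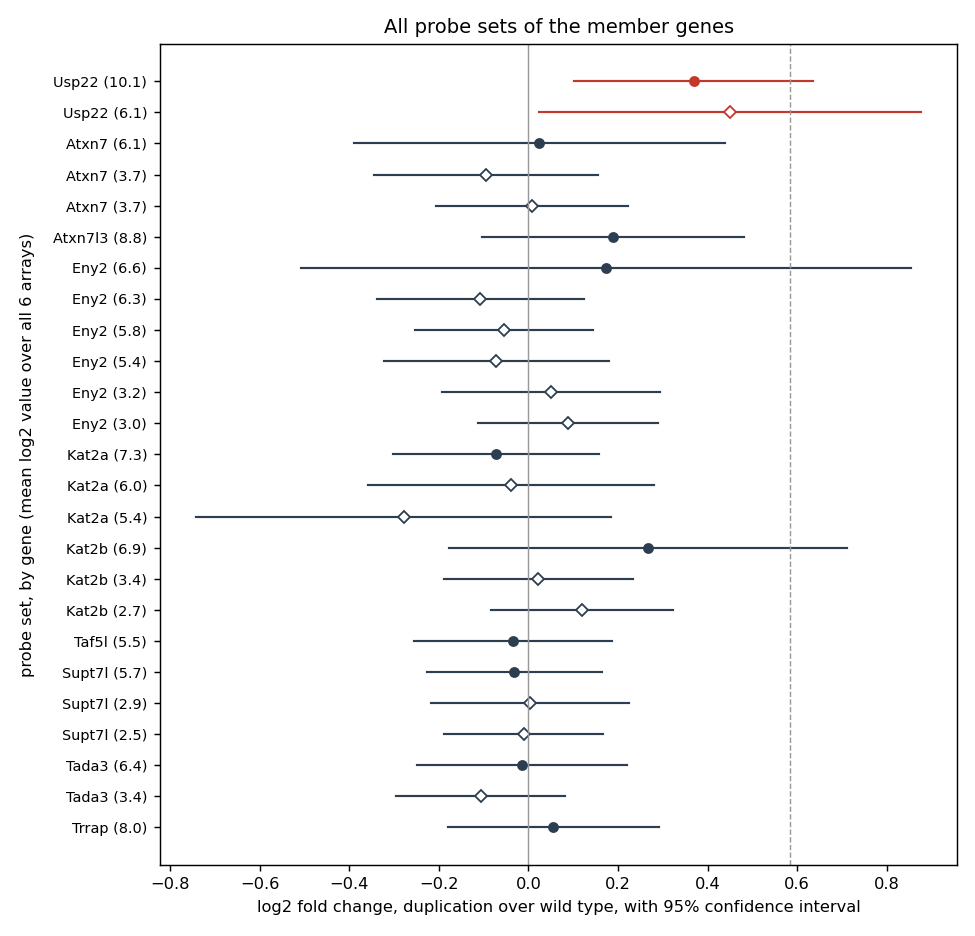
Log2 fold change of each of the 25 probe sets of the member genes, duplication over wild type, with its 95% confidence interval from limma. Filled circles mark the brightest probe set of a gene, open diamonds the others, the number beside a name is the mean log2 value over the 6 arrays, and the dashed line stands at the log2 value of 1.5-fold. The intervals of the 2 Usp22 probe sets, in red, exclude 0, and those of the other 23 hold it.

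Across the 10 members, 6 were higher and 4 lower in the duplication mice, with a median log2 fold change of 0.04. Over all 18193 genes 41.7% were higher, with a median of -0.02. The 9 partners of Usp22 ranged from -0.07 to 0.27, with 5 higher and a median of 0.02, and the confidence interval of each of the 9 held 0. For 7 of the 9 the interval ended below 0.58, the log2 value of 1.5-fold, while those of Eny2 and Kat2b reached above it. Groups did not overlap for 1 of the 10 genes, Usp22, where this holds for 8.29% of all genes, 2.7% with the duplication mice above. Of the 25 probe sets 2 had an unadjusted p under 0.05, both of Usp22, and limma called 0 of the 25 after adjustment over all probe sets.

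Usp22 was then set beside its partners within each mouse. Each gene was taken as the difference from its own wild-type mean, so that levels of different probes are not compared. Usp22 lay at 0.49, 0.37 and 0.25 in duplication replicates 1, 2 and 3, and the mean of the 9 partners at 0.07, 0.03 and 0.09. Usp22 minus the partners was 0.42, 0.34 and 0.17 in these mice and -0.25, 0.03 and 0.22 in wild-type replicates 1, 2 and 3. Its mean was 0.31 ± 0.13 in the duplication group and 0.00 ± 0.24 in the wild-type group (SD, n = 3), and the groups overlapped, because wild-type replicate 3 lay above duplication replicate 3. Without wild-type replicate 1 the difference was 0.18. Taken 1 partner at a time, the duplication mice were all above the wild-type mice in Usp22 minus Kat2a, Taf5l, Supt7l, Tada3 and Trrap, and overlapped with them for the other 4. All 9 differences reuse the same Usp22 values, in which the groups were already apart, so they are not separate results. A share over all genes is not given for them. These differences were not tested, since the genes were selected with earlier results of these arrays known.

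Beside its neighbours in the segment, Usp22 was in the lower part of the range. It was number 15 by log2 fold change among the 20 segment genes whose mean log2 value was at least 6. Their quartiles were 0.36 and 0.56, and they ranged from -0.17 to 0.76. Cops3 and Rnf112, which mark the ends of the segment, ranked below Usp22, at -0.17 (SE 0.08) and 0.23 (SE 0.22). The mean of the other 19 genes lay at 0.37, 0.49 and 0.50 above wild type in duplication replicates 1, 2 and 3, against 0.49, 0.37 and 0.25 for Usp22. The order of the 3 mice was thus opposite for Usp22 and for this mean, in which duplication replicates 2 and 3 were nearly equal. Of the duplication mice, replicate 1 was lowest and replicate 2 highest for Rasd1 and Rnf112, with SEs of 0.38 and 0.22. The order of the mean without these genes was not tested. Among single neighbours, Rai1, Alkbh5 and Dhrs7b had the order of Usp22. Llgl1, Drg2, Nt5m and Cops3 had the opposite order, and the others had neither. In wild-type mice the spread of Usp22, an SD of 0.17, was larger than that of the mean over the 19 genes, 0.02, which averages over genes.

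**Figure D3:**
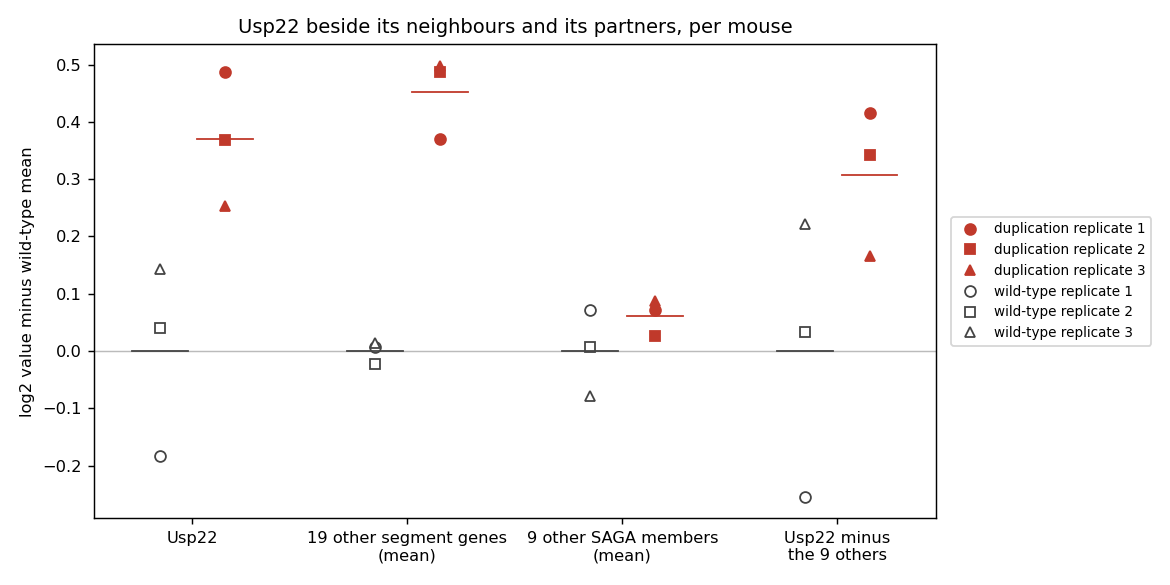
Log2 value minus the wild-type mean in each mouse for Usp22, for the mean of the 19 other segment genes at or above a mean log2 value of 6, for the mean of the 9 other SAGA members, and for Usp22 minus those 9. Filled red symbols are duplication mice, open symbols wild-type mice and short lines group means. Groups are apart in the first 2 columns and overlap in the last 2.

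Genes whose pattern was most like that of Usp22 were ranked over the 6 arrays among genes whose mean log2 value was at least 6. Each gene was centred on its own mean, and likeness was the root mean square of the differences from Usp22 in log2 units. Its median over these genes was 0.27, and a gene with the same value on all arrays would lie at 0.22. The nearest was Grin2b, which encodes a subunit of the NMDA receptor, at 0.07, with a log2 fold change of 0.28 (SE 0.13). It was followed by Rapgef1, an exchange factor for small GTPases, at 0.08, Arhgap31, a GTPase-activating protein, at 0.09, Gria3, an AMPA receptor subunit, at 0.10, and Rai1, a gene of the same segment, at 0.10. The log2 fold changes of these 4 were 0.28, 0.27, 0.29 and 0.39. With duplication replicate 2 alone they were 0.23, 0.28, 0.17 and 0.47, and that of Grin2b was 0.34. No test is given for the 5 genes, since the likeness that chose them includes the genotype difference. The 3 dimmer probe sets of Grin2b gave -0.13, -0.16 and -0.07, at means of 6.94, 3.57 and 3.32. That of Rapgef1 gave -0.15 at a mean of 3.80. The direction thus holds for 1 probe set of each gene. Array medians were 3.74 to 3.79, so all of these but the Grin2b set at -0.13 were close to or under them. The 3 dimmer sets of Arhgap31 gave 0.19, 0.07 and -0.03, and the second sets of Gria3 and Rai1 gave 0.60 and 0.27. Among the 7 partners with a mean log2 value of at least 6, Trrap came nearest to Usp22, at rank 128. Taf5l and Supt7l, with lower means, were not ranked.

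The remaining subunits of SAGA were described from a list of 14 genes, of which 13 were measured. Most of them were lower in the duplication mice, 11 of 13, where 58.3% of all genes were lower, and the median log2 fold change was -0.16. For 4 of the 13 every duplication value was below every wild-type value, which holds for 5.59% of all genes. Without duplication replicate 1, 12 were lower, without duplication replicate 3, 11, and with duplication replicate 2 alone in its group, 11. Limma called 0 of the 13 after adjustment over all probe sets, and 3 had an unadjusted p under 0.05, all lower, where 3.17% of all genes have such a p and 2.01% are lower with it. Duplication replicate 3 was the lowest of the 6 mice for 6 of the 13, and the part of its regional markers in these values was not tested. The count of 4 became 7 without wild-type replicate 1, where fewer mice make full separation easier. The share of all genes in that setting is not given, since 5.59% holds for all 6 mice. Probe sets with an unadjusted p under 0.05 by limma also rose there, from 1272 to 2620.

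The 3 with an unadjusted p under 0.05 belong to different parts of the complex. Taf12, a histone-fold subunit of the core that is shared with the general factor TFIID, had log2 values of 5.69, 5.53 and 5.56 in duplication mice 1 to 3 and of 5.86, 5.94 and 5.86 in wild-type mice 1 to 3. Its log2 fold change was -0.30 (SE 0.08, unadjusted p = 0.00831, adjusted p = 0.994 by limma), and -0.36 with duplication replicate 2 alone. Tada2b, the adaptor that ties the acetyltransferase to SAGA, had log2 values of 6.46, 6.73 and 6.43 in duplication mice 1 to 3 and of 6.89, 6.82 and 6.81 in wild-type mice 1 to 3. Its log2 fold change was -0.30 (SE 0.10, unadjusted p = 0.0211, adjusted p = 0.994 by limma). It was -0.11 with duplication replicate 2 alone, and -0.26 without duplication replicate 1 (unadjusted p = 0.0729). Both genes have 1 probe set, and each duplication mouse was below each wild-type mouse.

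Atxn7l1, a relative of Atxn7, had log2 values of 5.94, 5.86 and 5.51 in duplication mice 1 to 3 and of 5.97, 6.26 and 6.18 in wild-type mice 1 to 3, with duplication replicate 3 lowest. Its log2 fold change was -0.36 (SE 0.14, unadjusted p = 0.0332), but another of its 6 probe sets gave 0.30 (SE 0.25), so its probe sets disagreed. The brightest was at -0.27 with duplication replicate 2 alone. Tada1, a histone-fold subunit, was the fourth gene without overlap, at 6.20, 6.08 and 6.14 in duplication mice 1 to 3 and 6.37, 6.34 and 6.23 in wild-type mice 1 to 3. Its log2 fold change was -0.17 (SE 0.08, unadjusted p = 0.0682), and -0.23 with duplication replicate 2 alone. The dimmer probe set of Tada1 gave -0.04 (SE 0.12), with overlapping groups.

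The groups overlapped for the other 9 of these subunits. Supt3 had a log2 fold change of -0.28, Taf6l of -0.20 and Supt20 of -0.10, and all 3 are structural subunits of the core. With duplication replicate 2 alone these were -0.16, -0.13 and -0.04. The dimmer probe sets of Supt20 gave 0.03, 0.04, -0.01, 0.07, 0.10 and -0.12. Those at 0.03 and 0.04, with means of 4.91 and 4.39, differed in sign from the brightest. The others had means of 2.65 to 3.31, under the array medians of 3.74 to 3.79, and say little on direction. The histone-fold proteins Taf10 and Taf9b, which TFIID also uses, had log2 fold changes of -0.04 and 0.02, and of -0.03 and -0.01 with duplication replicate 2 alone. The dimmer sets of Taf10 and Taf9b gave -0.05 and 0.06. Sf3b3 and Sf3b5, proteins of the splicing machinery that also sit in SAGA, were at -0.16 and -0.04. These were -0.01 and 0.04 with duplication replicate 2 alone. The dimmer set of Sf3b3 gave 0.13. For Sf3b5 the second set, at a mean of 8.19, gave -0.18 (SE 0.12) and the dimmest -0.06. Atxn7l2, another relative of Atxn7, was at -0.10 and Sgf29, the reader of methylated histone H3 in the acetyltransferase module, at 0.05. In duplication replicate 2 alone they were at -0.11 and 0.03. The dimmer sets of Sgf29 gave -0.02 and 0.10.

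**Figure D4:**
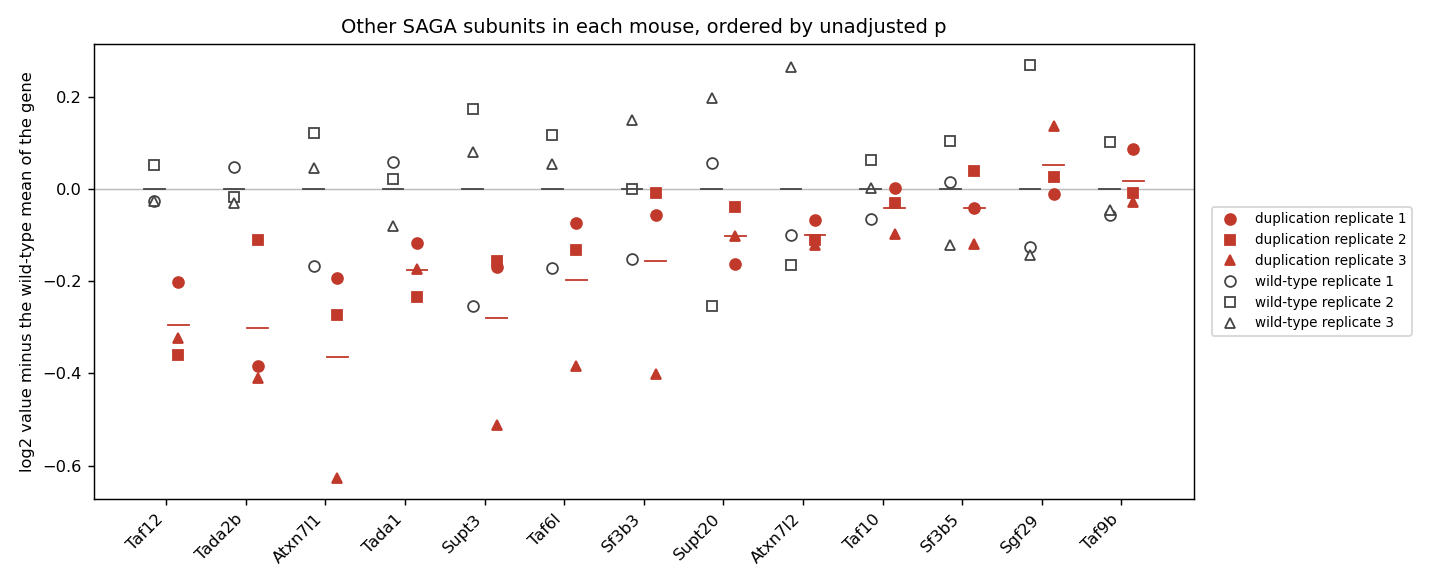
Log2 value of each of the 13 other SAGA subunits in each mouse minus the wild-type mean of that gene, ordered by unadjusted p. Filled red symbols are duplication mice, open symbols wild-type mice and short lines group means. For Taf12, Tada2b, Atxn7l1 and Tada1 the filled symbols all lie below the open ones.

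Complexes that share subunits or substrates with SAGA were compared in the same way. Their counts stand beside all genes, of which 58.3% were lower and 5.59% had every duplication value below every wild-type value. In the ATAC complex, which uses Kat2a or Kat2b with another set of partners, 2 of 9 genes were higher and 7 lower. The median log2 fold change was -0.10. For 2 of the 9, Dr1 among them, every duplication value was below every wild-type value. Dr1, a repressor of transcription that is also part of ATAC, had log2 values of 6.65, 6.87 and 6.71 in duplication mice 1 to 3 and of 6.96, 7.04 and 7.06 in wild-type mice 1 to 3. Its log2 fold change was -0.28 (SE 0.09, unadjusted p = 0.0161, adjusted p = 0.994 by limma), and its dimmer probe set gave -0.04. It was -0.15 with duplication replicate 2 alone, and -0.23 without duplication replicate 1 (unadjusted p = 0.0609). Pole4, a histone-fold protein, was at -0.23 (SE 0.11) and Yeats2, a reader of acylated histones, at 0.20 (SE 0.10), both with overlapping groups. Pole4 was at -0.04 and Yeats2 at 0.04 with duplication replicate 2 alone. The dimmer probe sets of Pole4 gave -0.10, with the duplication group wholly below the wild-type group, and 0.07. That of Yeats2 gave 0.0048.

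Among the enzymes that place or remove ubiquitin on histone H2B, 4 of 9 measured genes were higher and 5 lower, with a median log2 fold change of 0.00. Ube2a, a conjugating enzyme that places the mark, had log2 values of 8.16, 8.32 and 8.20 in duplication mice 1 to 3 and of 8.37, 8.34 and 8.39 in wild-type mice 1 to 3. The groups did not overlap on this probe set, as holds with the duplication mice below for 5.59% of all genes. Its log2 fold change was -0.14 (SE 0.08, unadjusted p = 0.124), and -0.04 with duplication replicate 2 alone. The second probe set of Ube2a also gave -0.14, but there the groups overlapped. Usp27x, a relative of Usp22 that can work with the same adaptors, was at -0.40 (SE 0.27) and -0.35 (SE 0.18) on its 2 probe sets. Its brighter set had log2 values of 6.07, 5.30 and 5.34 in duplication mice 1 to 3 and of 5.74, 6.47 and 5.70 in wild-type mice 1 to 3, so the groups overlapped. The value of this set was -0.65 without duplication replicate 1 (unadjusted p = 0.0369), -0.15 without wild-type replicate 2 and -0.67 with duplication replicate 2 alone. Rnf20, a ligase that places the mark, was at 0.10 (SE 0.13), and at 0.27 with duplication replicate 2 alone. The dimmer probe sets of Rnf20 gave -0.04, 0.40 and -0.05, at means of 4.17, 3.95 and 3.18. Array medians were 3.74 to 3.79, so these sets were close to or under them and say little on direction.

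TREX-2, which shares Eny2, had 1 of 5 genes higher and 4 lower, with log2 fold changes of -0.10 to 0.03. Among all genes 58.3% were lower, and 5.59% had the duplication group wholly below the wild-type group. Sem1 was at -0.05, Cetn2, a centrin, at -0.10 and Cetn3 at 0.03, and 1 gene, Sem1, had groups that did not overlap, on 1 of its 2 probe sets. In duplication replicate 2 alone the 3 genes were at -0.05, -0.40 and 0.01. In the TIP60 complex, which shares Trrap, 4 of 14 measured genes were higher and 10 lower, with a median of -0.05. The helicase-like pair Ruvbl1 and Ruvbl2 were at -0.22 (SE 0.09, unadjusted p = 0.0543) and -0.18 (SE 0.08, unadjusted p = 0.0677), each with the duplication group wholly below the wild-type group. With duplication replicate 2 alone they were at -0.22 and -0.23. Brd8, a bromodomain protein, was at 0.14 (SE 0.09) and at 0.12 with duplication replicate 2 alone. Another of its 6 probe sets, at a mean of 4.81, gave -0.13, so the sets disagreed. The dimmest gave 0.29 (unadjusted p = 0.0355 by limma), at a mean of 3.41, under the array medians of 3.74 to 3.79.

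Over the 5 lists, 50 of 53 genes were measured, 13 higher and 37 lower, where 58.3% of all genes were lower, with a median log2 fold change of -0.05. Limma called 0 of the 50 after adjustment over all probe sets, and 4 had an unadjusted p under 0.05, all lower, where 2.01% of all genes are lower at that level. Groups did not overlap for 10 of the 50, all with the duplication mice below, and for 0 with them above, where 5.59% of all genes have them below and 2.7% above.

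**Figure D5:**
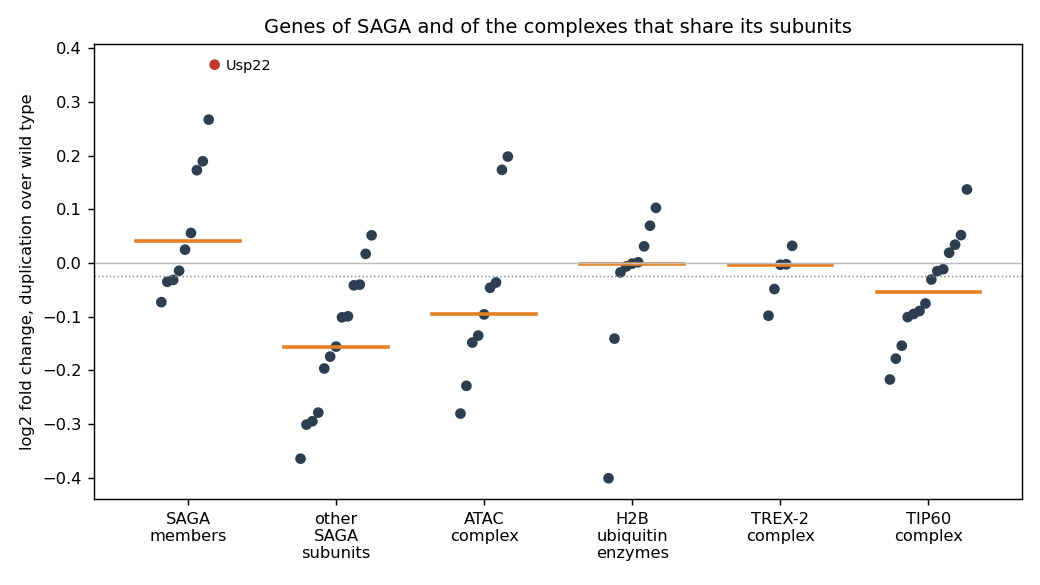
Log2 fold change, duplication over wild type, of each measured gene in the 10 SAGA members and in the 5 other lists, 1 point per gene. Orange bars are list medians, from -0.16 for the other SAGA subunits to 0.04 for the members, and the dotted line is the median of all genes, -0.02. Usp22, in red, has the highest value shown.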

How the data were processed

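The deposited table holds log2 values per probe set that the authors made with RMA, per the submitters' processing notes. RMA corrects background, normalizes quantiles over the arrays and summarises probes by median polish. Its version is not stated in the labels, and array intensities before RMA were not analysed here, so background correction and a slide block were not varied. The labels' extraction protocol lists other organs and their labelling protocol speaks of pools. The sample records name hippocampus and 1 individual each. No batch is named, and litter or cohort cannot be told apart from genotype.

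Of 45101 rows, 64 controls were left out. Of 45037 probe sets 34945 had 1 gene symbol, 932 several and 9160 none. Symbols were updated by Entrez identifier (34741 found) to GRCm38.p6, used for names, chromosomes and gene order only. Array medians were 3.74 to 3.79, and several of the dimmer probe sets described above had means close to or under them. The number of arrays limits the precision.

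Genotypes were compared with limma 3.58.1 (R 4.3.3), lmFit and eBayes, two-sided, with 7.11 degrees of freedom and Benjamini-Hochberg adjustment over all probe sets at 0.05. The fit was run on simulated arrays to check its estimates of known changes. These had independent values per probe set, so differences between mice that many genes share were not covered. Nothing says that the mice are from separate litters, and p-values measure the spread between these mice. The members and lists were chosen with earlier results of these data known. Named were all members, all measured genes of the other SAGA subunits, the 3 genes of smallest unadjusted p in each other list and the 5 most like Usp22.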

Additional observations from a re-analysis of the deposited data

How the results depend on the processing

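Limma called 0 probe sets over the whole table, except for 1 under an intensity trend with robust prior and 1 with array weights, and no gene named here was called. At an unadjusted p under 0.05 the count was 1272. It was 307 and 508 when only probe sets with a mean of at least 6 or at least 4 were tested, which leaves fewer probe sets, and 2765 and 2620 without duplication replicate 2 and wild-type replicate 1, where the cause was not tested. Usp22 kept its direction in all 17 alternatives, from 0.28 to 0.45 on the log2 scale, and did not pass in any that had a test (lowest adjusted p = 0.781). Usp22 minus its 9 partners ranged from 0.18 to 0.42 over 12 alternatives, and 5 to 8 of the 10 members were higher over 16. With a minimum mean of 6, the members Taf5l and Supt7l gave no value.

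Named genes whose log2 fold change turned its sign are given here, and the cause was not tested. They were, with array weights, Atxn7 (-0.041) and Cetn2 (0.011), and with cyclic loess Tada3 (0.0045). With duplication replicate 2 alone in its group they were Atxn7l3 (-0.072), Taf5l (0.021), Supt7l (0.018), Tada3 (0.086), Sf3b5 (0.040) and Taf9b (-0.0081). With the mean of all probe sets of a gene they were Atxn7 (-0.021), Grin2b (-0.020) and Supt20 (0.00079). With the probe set of largest variance they were Atxn7l1 (0.30), Grin2b (-0.13), Sem1 (0.029), Sf3b3 (0.13), Sgf29 (-0.020) and Supt7l (0.0036). With 1 mouse left out at a time, the log2 fold change crossed 0 for Atxn7 (-0.11 to 0.21), Eny2 (-0.18 to 0.40), Taf5l (-0.072 to 0.028), Supt7l (-0.071 to 0.0090), Tada3 (-0.078 to 0.058), Trrap (-0.015 to 0.11), Atxn7l2 (-0.18 to 0.033), Sf3b5 (-0.10 to 0.012), Sgf29 (-0.020 to 0.19), Taf9b (-0.018 to 0.068) and Cetn2 (-0.25 to 0.050).

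The counts over the other SAGA subunits under alternatives were added after the data were seen, and 10 to 13 of the 13 genes were lower there. No paired analysis was possible because the mouse names in the labels share no number between the groups, and the replicate numbers used here only name the mice.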
